A study of Mus musculus with 39 samples.

Results

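The comparison described here was that of microglia from male 5XFAD mice with microglia from male wild-type mice (WT), both exposed to chronic intermittent hypoxia (CIH) and both 8 months old. The 10 libraries WT CIH 1 to 5 and 5XFAD CIH 1 to 5 were taken from the gene count table of the male mice, out of 39 libraries in the whole study. A gene entered the comparison when it had more than 1 read per 1000000 counted reads (CPM) in at least 3 of these 10 libraries, which left 14793 of the 54532 genes listed. The study isolated microglia from mice of both sexes and both genotypes after CIH or after room air (normoxia, NX) and sequenced their RNA in bulk. Its other libraries were used here only to show where the hypoxic males differed.

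5XFAD mice carry human transgenes, a mutant APP among them, under elements of the neuronal Thy1 promoter and deposit amyloid in the brain. The transgenic line was B6SJL-derived and was crossed to C57BL/6J females. The labels name the hypoxic treatment intermittent hypoxia, and it is called CIH here. Per the labels, oxygen alternated between 6.5% and 21% over 90 s intervals for 8 h of the sleep period, beginning at 4 months of age. The study's methods state a different oxygen minimum and different daily hours, so the exposure is not settled by these sources. The NX groups breathed room air. Cells were taken from the cerebrum by papain digestion, a Percoll step and magnetic beads against CD11b, a surface integrin shared by microglia, border macrophages, monocytes and neutrophils, so the fraction was enriched by a marker that is not restricted to microglia. Each group compared here held 5 independent samples, and the male cohort was 8 months old when the female cohort was 10 months old.

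Microglia are the resident macrophages of the brain parenchyma. Around amyloid plaques they are known to take on a disease-associated state (DAM), which depends on the lipid-sensing receptor TREM2 and its adaptor TYROBP and in which genes for lipid handling, lysosomal proteolysis and phagocytosis are high while genes of the surveillance state are low. Intermittent hypoxia models the repeated oxygen loss of sleep apnoea, and low oxygen stabilises the HIF factors, which raise genes of glucose uptake and glycolysis.

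The 10 libraries held between 13902976 and 21302810 counted reads, so that 1 CPM stood for 13.9 to 21.3 reads. The 8 defining microglial markers were read strongly in every library, with summed levels of 26920 to 30980 CPM in WT CIH and 21890 to 24080 CPM in 5XFAD CIH. The first principal component of the 10 libraries held 56.6% of the variance and separated the genotypes without overlap, from −101.1 to −42.5 in 5XFAD CIH and from 53.5 to 66.7 in WT CIH. 5XFAD CIH 5 lay farthest out. Among the normoxic males, 5XFAD NX 4 and NX 5 stood apart from the other libraries on the second component, at −80.2 and −78.8 against −25.3 to 37.9, and the counts and gene group values of the NX comparison are therefore also given without these libraries. In the female table, which was counted against another annotation table, no mitochondrially encoded gene was tested.

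Values of single genes are CPM scaled by the trimmed mean of M values (TMM), given as mean ± SD over the 5 libraries of a group, and log2FC is the log2 ratio of 5XFAD CIH to WT CIH. A gene is called higher or lower, or said to have risen or fallen, when the false discovery rate (FDR) of edgeR's quasi-likelihood test was below 0.05 and the log2FC was beyond 1 in either direction. By this rule 2764 genes differed between the genotypes under CIH. Higher genes numbered 1746, or 11.8% of those tested, and lower genes numbered 1018, or 6.88%. At the FDR alone, 3739 genes (25.3%) were higher and 3509 (23.7%) were lower, and the median log2FC of all tested genes was −0.06. The highest library of one genotype lay below the lowest of the other for 2903 genes that were higher in 5XFAD CIH (19.6%) and for 2398 that were lower (16.2%), and 1576 of the called higher genes and 743 of the called lower genes were among them. These shares are the background against which the counts of each gene group below are read. In bulk RNA, fewer cells of a type and less RNA per cell cannot be told apart, and this holds for every difference that follows.

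The split of the calls depended on the scaling. The TMM factors lay between 0.779 and 0.935 in 5XFAD CIH and between 1.088 and 1.194 in WT CIH, and with scaling by library size alone the median log2FC moved to −0.434 and the calls to 1147 higher and 2527 lower genes, so that 31.2% of the calls were higher in place of 63.2%.

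**Figure D1:**
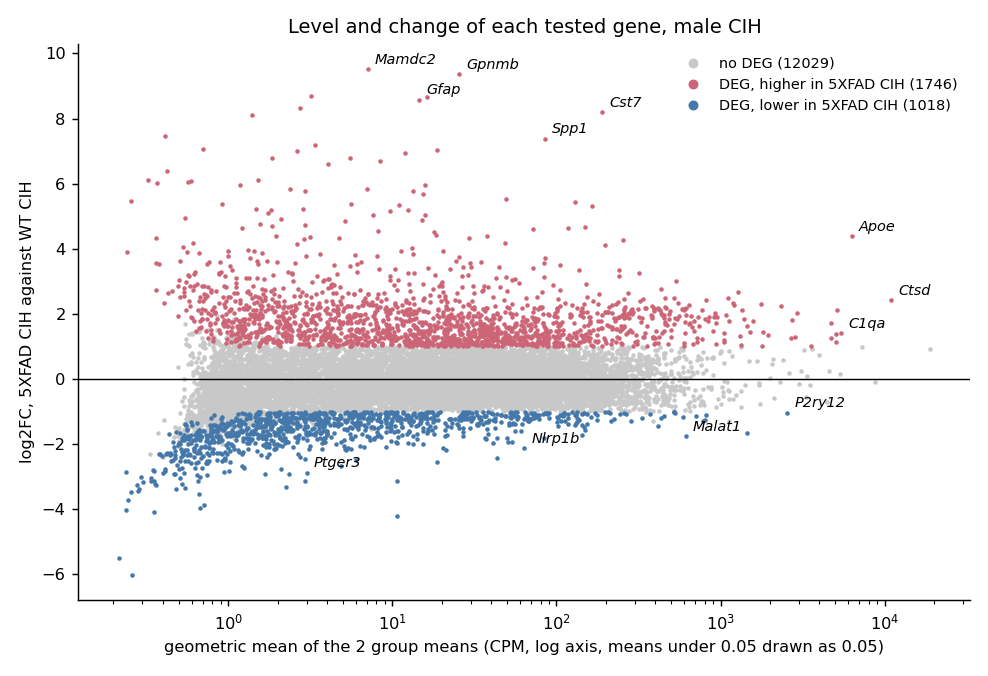
Each point is 1 of the 14793 genes tested, with the geometric mean of the 2 group means in CPM on a log axis across and the log2FC of 5XFAD CIH over WT CIH up; means under 0.05 CPM are drawn at 0.05. The 1746 called higher genes reach much farther from 0 than the 1018 called lower genes.

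Among called genes whose libraries did not overlap between the genotypes and whose higher group averaged at least 5 CPM, the 10 largest rises were in genes read at low levels in WT CIH. Mamdc2, which encodes a secreted proteoglycan, read 0.0637, 0.244, 0.127, 0.317 and 0.524 CPM in WT CIH and 209, 228, 176, 157 and 211 CPM in 5XFAD CIH (log2FC 9.51, SE 0.24, adjusted p = 4.66e-12). Gpnmb, a lysosomal transmembrane glycoprotein, read 0.956, 0.537, 0.0635, 1.32 and 2.1 CPM in WT CIH and 755, 612, 465, 335 and 1139 CPM in 5XFAD CIH (log2FC 9.36, SE 0.50, adjusted p = 3.92e-09). The 2 groups were separated by a wide gap for both genes. Lgi2 rose from 0.157 ± 0.221 to 64.5 ± 42.3 CPM (log2FC 8.69) and Baiap2l2 from 0.809 ± 0.82 to 331 ± 117 CPM (log2FC 8.66), or by 9.68 and 9.45 on the log2 scale without WT CIH 5. The WNT antagonist Dkk2 read 0.0637, 0, 0, 0 and 0.698 CPM in WT CIH and 61.9, 60.1, 41, 34.3 and 51.3 CPM in 5XFAD CIH, so that most of its WT CIH level lay in 1 library, and no fold is given for it. Tmem163, a zinc transporter, went from 0.279 ± 0.121 to 40.8 ± 15.3 CPM (log2FC 7.18). Spp1, the phosphoprotein osteopontin, went from 6.55 ± 1.65 to 1097 ± 793 CPM (log2FC 7.38). Dcstamp, a protein of macrophage fusion, had at most 2 reads in any WT CIH library and 24.3 CPM on average in 5XFAD CIH, and no fold is given for it. Gfap, the astrocyte filament protein, was also among these 10 and is described with the astrocyte markers.

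The DAM genes rose together. All 37 genes of the DAM list were tested and all 37 were called higher, with a median log2FC of 3.35 against −0.06 over all genes. Apoe (chr7:19696109-19699188, GRCm38), the main apolipoprotein of the brain, read 1276, 1391, 1413, 1353 and 1453 CPM in WT CIH and 28610, 20590, 25020, 26320 and 43590 CPM in 5XFAD CIH, a 20.9-fold difference (log2FC 4.39, SE 0.18, adjusted p = 3.38e-10). Every 5XFAD CIH library lay far above every WT CIH library, and 5XFAD CIH 5 was the highest. Cst7, an inhibitor of lysosomal cathepsins, read 11.7, 13.6, 9.15, 9.4 and 11.4 CPM in WT CIH and 2860, 2275, 2617, 3156 and 5420 CPM in 5XFAD CIH (log2FC 8.2, SE 0.27, adjusted p = 3.21e-11). No library of one genotype came near the other for this gene.

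Of the receptors of this state, Trem2 (chr17:48346401-48354147, GRCm38) read 1531, 1535, 1444, 1405 and 1341 CPM in WT CIH and 4641, 3639, 4702, 5243 and 7520 CPM in 5XFAD CIH (log2FC 1.83, SE 0.16, adjusted p = 4.17e-07). Its 5XFAD CIH libraries all exceeded its WT CIH libraries. The adaptor gene Tyrobp went from 502 ± 38.4 to 3231 ± 1197 CPM (log2FC 2.69), and the beta-glucan receptor Clec7a from 29.7 ± 2.91 to 752 ± 85 CPM (log2FC 4.66). Axl, a receptor tyrosine kinase that binds apoptotic cells through Gas6, went from 47.1 ± 6.23 to 823 ± 109 CPM (log2FC 4.13). The integrin Itgax went from 26 ± 5.81 to 1040 ± 145 CPM (log2FC 5.32), and Lpl, lipoprotein lipase, from 19.8 ± 1.7 to 858 ± 179 CPM (log2FC 5.44). The secreted factors of the list rose as well, with Igf1, insulin-like growth factor 1, going from 7.22 ± 1.53 to 335 ± 58.4 CPM (log2FC 5.53) and Csf1, the ligand of the survival receptor CSF1R, from 23.6 ± 4.68 to 586 ± 57.8 CPM (log2FC 4.63). The smallest rise of the 37 was that of the adhesion molecule Cadm1, from 147 ± 16.3 to 449.8 ± 35.8 CPM (log2FC 1.61). Among the 23 tested growth and secreted factors, 12 were higher and 1 was lower (median log2FC 1.10). Sfrp1, a secreted WNT inhibitor, was the lower one, at 1.22 ± 0.728 CPM in WT CIH and 0.26 ± 0.232 CPM in 5XFAD CIH with overlapping libraries.

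**Figure D2:**
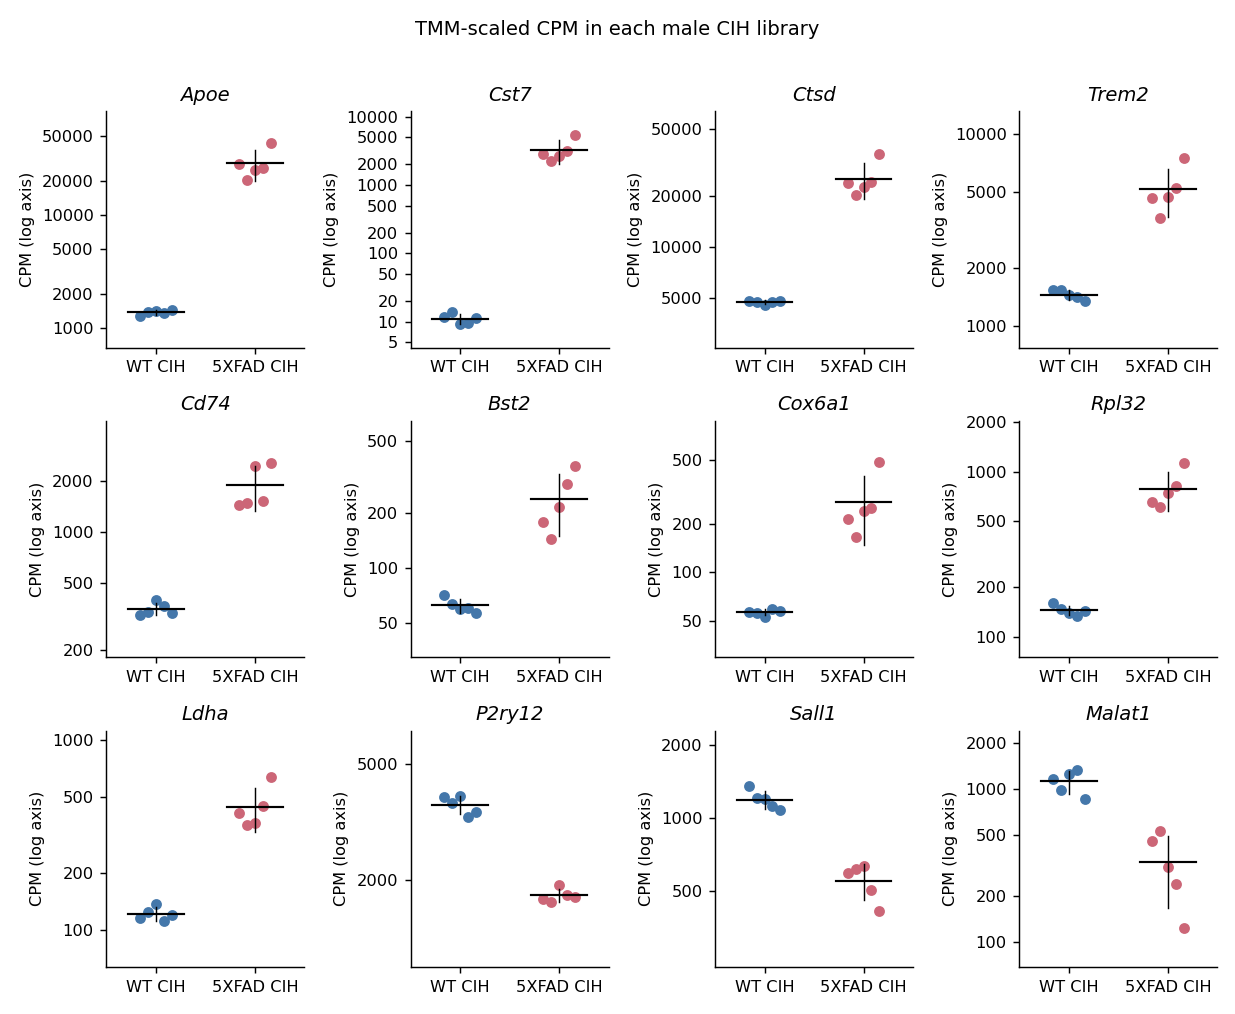
Each panel shows 1 gene, with a point for each of the 5 WT CIH and 5XFAD CIH libraries on a log axis of TMM-scaled CPM, a horizontal line at the group mean and a vertical line of 1 SD to either side. The groups do not overlap in any of the 12 panels; Apoe, Cst7, Ctsd, Trem2, Cd74, Bst2, Cox6a1, Rpl32 and Ldha are higher and P2ry12, Sall1 and Malat1 are lower in 5XFAD CIH.

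Few genes of the surveillance state were called lower. Of 30 homeostatic microglial genes, none was higher and 4 were lower, which is 13.3% against the background of 6.88%, and the median log2FC was −0.35. With scaling by library size alone 9 were lower (median −0.71). At the FDR alone 17 were lower and 5 were higher. P2ry12, the purinergic receptor that guides microglial processes, read 3878, 3686, 3890, 3293 and 3425 CPM in WT CIH and 1734, 1693, 1926, 1786 and 1749 CPM in 5XFAD CIH (log2FC −1.03, SE 0.087, adjusted p = 3.37e-07). Its groups did not overlap. Also lower were the microglial transcription factor Sall1 (1193 ± 105 CPM in WT CIH and 551 ± 92.3 CPM in 5XFAD CIH, log2FC −1.11) and Ecscr (154 ± 27.1 CPM in WT CIH and 71.4 ± 23.8 CPM in 5XFAD CIH, log2FC −1.11). Tmem119, a microglial surface marker, had 2576 ± 253 CPM in WT CIH and 1721 ± 248 CPM in 5XFAD CIH (log2FC −0.58, adjusted p = 0.000669), and Cx3cr1, the fractalkine receptor, 5657 ± 312 CPM in WT CIH and 3465 ± 305 CPM in 5XFAD CIH (log2FC −0.71, adjusted p = 1.9e-05), both past the FDR and short of the fold threshold. Csf1r overlapped between the genotypes (9020 ± 703 CPM in WT CIH and 8399 ± 555 CPM in 5XFAD CIH, adjusted p = 0.356).

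Of 26 tested microglial transcription factors, 5 were higher and 2 were lower (median log2FC 0.36, −0.01 with scaling by library size). Bhlhe40, a basic helix-loop-helix repressor, rose from 3.94 ± 1.67 to 85.6 ± 15.8 CPM (log2FC 4.44), and the interferon regulator Irf7 from 11.3 ± 3.63 to 43.3 ± 12.3 CPM (log2FC 1.95). Maf fell from 669 ± 81.4 to 303 ± 35.7 CPM (log2FC −1.14) beside Sall1. Spi1, which encodes the lineage factor PU.1, had 341 ± 68.3 CPM in WT CIH and 511 ± 143 CPM in 5XFAD CIH with overlapping libraries (adjusted p = 0.0156). Of 14 purine receptors and ectonucleotidases, 2 were higher and 2 were lower (median log2FC −0.45), or 1 and 6 with scaling by library size, with the adenosine receptor Adora1 going from 1.49 ± 0.731 to 14.1 ± 4.06 CPM (log2FC 3.22) and the ATP-gated channel P2rx1 from 13.1 ± 2.19 to 3.81 ± 2.25 CPM (log2FC −1.76). TGF-beta signalling, which maintains the microglial state, held 1 higher gene of 22, the pseudoreceptor Bambi (from 1.65 ± 0.442 to 18.6 ± 3.84 CPM, log2FC 3.48), and no lower one, with a median of −0.13. Scaling by library size gave 4 lower genes of the 22.

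Lysosomal genes rose in part. Of 16 cathepsins and cystatins, 9 were higher (56.2%) and none was lower, with a median log2FC of 1.25. Ctsd (chr7:142375911-142388038, GRCm38), the aspartic protease of the lysosome, read 4777, 4733, 4512, 4750 and 4826 CPM in WT CIH and 23870, 20280, 22710, 24110 and 35750 CPM in 5XFAD CIH (log2FC 2.42, SE 0.14, adjusted p = 7.72e-09). The lowest 5XFAD CIH library was several times the highest WT CIH library. Ctsb, a cysteine protease, went from 2431 ± 118 to 10658 ± 986 CPM (log2FC 2.13) and the inducible endosomal protease Ctse from 1.32 ± 0.759 to 44.6 ± 8.84 CPM (log2FC 5.04). Cst3, cystatin C, had 13729 ± 962 CPM in WT CIH and 25855 ± 6900 CPM in 5XFAD CIH and stayed under the fold threshold (log2FC 0.91, adjusted p = 0.000259). Of 50 lysosomal hydrolases and membrane proteins, 17 were higher (34.0%), 1 was lower and 34 were higher at the FDR alone (median log2FC 0.52). With scaling by library size 12 were higher and 1 was lower (median 0.13). Naglu, an enzyme of heparan sulfate breakdown, read 201, 230.2, 157, 158 and 146 CPM in WT CIH and 569.7, 495, 581, 594 and 757 CPM in 5XFAD CIH (log2FC 1.75, SE 0.15, adjusted p = 2.95e-07). The groups were apart in all libraries. The only lower member was Sgsh, another heparan sulfate enzyme, at 29.9 ± 7.48 CPM in WT CIH and 10.2 ± 1.8 CPM in 5XFAD CIH (log2FC −1.55). The tetraspanin Cd63 went from 166 ± 7.58 to 1134 ± 342 CPM (log2FC 2.77) and the scavenger protein Cd68 from 545 ± 119 to 2654 ± 691 CPM (log2FC 2.28). Grn, which encodes progranulin, went from 1737 ± 173 to 4177 ± 249.2 CPM (log2FC 1.27). Of 20 tested subunits of the proton pump V-ATPase, 8 were higher and none was lower (median 0.67), or 4 and 1 with scaling by library size, and Atp6v0d2, a subunit of phagocytic macrophages, went from 0.229 ± 0.17 to 30.02 ± 9.04 CPM (log2FC 7.0).

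The window of 250 bases before to 50 after the start of Naglu, as given by RefSeq for GRCm38.p6, is shown because it holds an E-box core (CACGTG), letters that are also part of the CLEAR element known from many lysosomal genes. It lies at chr11:101069844-101070143 on the plus strand, and the match is in capitals.
Naglu: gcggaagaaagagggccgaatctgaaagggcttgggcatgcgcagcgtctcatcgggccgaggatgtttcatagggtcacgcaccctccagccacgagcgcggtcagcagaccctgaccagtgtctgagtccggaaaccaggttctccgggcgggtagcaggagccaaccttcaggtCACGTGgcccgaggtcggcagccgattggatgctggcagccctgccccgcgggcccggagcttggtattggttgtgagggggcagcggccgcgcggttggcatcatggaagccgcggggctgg
Such windows were at hand for 10387 of 14785 tested genes with a unique symbol, or 70.3%, so shares of motifs describe the genes with a window and not the whole lists. On either strand CACGTG was found in 10.0% of these windows, in 10.3% of those of the higher genes and in 8.08% of those of the lower genes. Within the lists it was found in 8 of 41 windows of lysosomal genes (19.5%), 30.8% of 13 V-ATPase windows and 27.3% of 11 cathepsin windows, and also in other lists, such as 33.3% of 15 circadian clock windows and 23.1% of 26 windows of Alzheimer risk genes. A match is a run of letters and no evidence of binding.

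Lipid genes rose in part. Of 30 genes of lipid and cholesterol handling, 14 were higher (46.7%) and 1 was lower (median log2FC 0.87), or 13 and 5 with scaling by library size (median 0.49). Besides Apoe and Lpl the higher genes included the fatty acid binding proteins Fabp5 (from 1.62 ± 0.779 to 216 ± 92.7 CPM, log2FC 7.04) and Fabp3 (from 0.514 ± 0.484 to 58.8 ± 23 CPM, log2FC 6.78). Ch25h, which makes 25-hydroxycholesterol, went from 2.15 ± 0.525 to 110.5 ± 62.4 CPM (log2FC 5.69). The lower gene was Abca1, the exporter that loads cholesterol onto apolipoproteins, at 538 ± 98 CPM in WT CIH and 253 ± 46.3 CPM in 5XFAD CIH (log2FC −1.09), and with the length offsets it was no longer called (log2FC −0.82). Of 26 genes of cholesterol and fatty acid synthesis, 14 were higher (53.8%) and none was lower (median 1.05), or 6 and 0 with scaling by library size (median 0.65). Scd2, a stearoyl-CoA desaturase, went from 145 ± 16.8 to 331 ± 51.4 CPM (log2FC 1.18), and the regulator Srebf2 from 49.2 ± 2.33 to 145 ± 11 CPM (log2FC 1.56).

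Many interferon response genes, though not all, were higher in 5XFAD CIH. Of 36 tested genes of the type I interferon response, 25 were called higher (69.4%), none was lower and 32 were higher at the FDR alone, with a median log2FC of 1.46. With scaling by library size 18 were higher (median 1.07). Bst2, the antiviral tether tetherin, read 71.4, 63.5, 59.6, 60.6 and 57 CPM in WT CIH and 179, 143, 216, 287 and 364 CPM in 5XFAD CIH (log2FC 1.93, SE 0.20, adjusted p = 3.26e-06). The lowest 5XFAD CIH library was above the highest WT CIH library. Ifi27l2a went from 6.53 ± 2.21 to 131 ± 60.8 CPM (log2FC 4.34), the restriction factor Ifitm3 from 19.5 ± 3.37 to 128 ± 49.2 CPM (log2FC 2.71) and the oligoadenylate synthetase Oas1a from 6.95 ± 1.5 to 41.8 ± 10.2 CPM (log2FC 2.59). Isg15, a ubiquitin-like modifier, went from 3.34 ± 0.543 to 16.2 ± 4.97 CPM (log2FC 2.28). The RNA sensor Ddx58 ran the other way at 47.2 ± 2.72 CPM in WT CIH and 36.5 ± 2.33 CPM in 5XFAD CIH and was lower at the FDR alone (log2FC −0.37, adjusted p = 0.00363). Ifit3 and Ifit3b are near-identical copies, and how the counting shared their reads is uncertain.

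The start of Bst2 is shown because its window holds 2 overlapping matches of the interferon response core (GAAANNGAA), in capitals. It lies at chr8:71537423-71537722 and is written on the minus strand, 5′ to 3′.
Bst2: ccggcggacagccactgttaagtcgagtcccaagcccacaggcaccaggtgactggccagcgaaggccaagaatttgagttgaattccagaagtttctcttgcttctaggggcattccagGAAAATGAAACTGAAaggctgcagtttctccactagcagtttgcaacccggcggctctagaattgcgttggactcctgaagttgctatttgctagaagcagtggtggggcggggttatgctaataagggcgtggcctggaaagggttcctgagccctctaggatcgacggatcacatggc
On either strand the core was in 7.42% of all windows at hand, in 10.1% of those of the higher genes, in 8.27% of those of the lower genes and in 17 of the 26 windows of interferon genes (65.4%).

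Of 9 tested MHC class II genes, 6 were higher (66.7%) and none was lower (median log2FC 1.19). With offsets for gene length 4 were higher (median 0.69), and with scaling by library size 4 (median 0.80). Cd74, the invariant chain, read 324, 337, 392, 365 and 332 CPM in WT CIH and 1446, 1471, 2427, 1514 and 2532 CPM in 5XFAD CIH (log2FC 2.42, SE 0.17, adjusted p = 5.97e-08). All 5XFAD CIH libraries were above all WT CIH libraries. H2-Ab1 went from 130.5 ± 16.6 to 504 ± 158 CPM (log2FC 1.95) and H2-Aa from 133 ± 15.4 to 493 ± 166 CPM (log2FC 1.89), while the transactivator Ciita had 5.76 ± 0.721 CPM in WT CIH and 6.22 ± 1.8 CPM in 5XFAD CIH with overlapping libraries. Of 18 genes of MHC class I and the immunoproteasome, 13 were higher (72.2%) and all 18 were higher at the FDR alone (median 1.32), with 8 called under scaling by library size. The class I chains H2-D1 (from 526 ± 69.6 to 2668 ± 322 CPM, log2FC 2.34) and H2-K1 (from 442 ± 38.5 to 1653 ± 222 CPM, log2FC 1.9) and their light chain B2m (from 1453 ± 109 to 5881 ± 1721 CPM, log2FC 2.02) were among them. Members of the H2-Q group share sequence, so their separate counts are uncertain.

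Complement and inflammatory genes were mixed. Of 16 complement genes, 5 were higher and none was lower (31.2%, median log2FC 0.38). The higher genes were C1qa, C1qb, C1qc, C3 and Itgax. With offsets for the trend of each library on gene length 2 were called, and C1qa, C1qb and C1qc lost their call (log2FC 0.82, 0.82 and 0.96). Scaling by library size gave 3 higher and 1 lower (median 0.006), and C1qb and C1qc lost theirs. C1qa, a chain of the initiator C1q, read 3799, 3253, 3411, 3101 and 3081 CPM in WT CIH and 8054, 6273, 7705, 9175 and 12900 CPM in 5XFAD CIH (log2FC 1.41, SE 0.16, adjusted p = 6.32e-06). The libraries of the 2 genotypes did not overlap. C1qb had 3127 ± 231 CPM in WT CIH and 8187 ± 2108 CPM in 5XFAD CIH (log2FC 1.39) and C3, the central component, 5.63 ± 1.66 CPM in WT CIH and 28.7 ± 12.3 CPM in 5XFAD CIH (log2FC 2.34). Of 21 tested chemokines, 10 were higher (47.6%, median 0.97), led in fold by Cxcl14 (from 2.18 ± 1.19 to 30.04 ± 15 CPM, log2FC 3.78), Ccl3 (from 74.8 ± 36.9 to 765 ± 239 CPM, log2FC 3.35) and Ccl6 (from 103 ± 7.62 to 982 ± 321 CPM, log2FC 3.26). Ccl2, the monocyte attractant, had 13.2 ± 3.2 CPM in WT CIH and 11.7 ± 2.31 CPM in 5XFAD CIH with overlapping libraries (adjusted p = 0.46).

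Of 25 cytokine and inflammasome genes, 3 were higher and 2 were lower, with a median log2FC of 0.17 that became −0.19 with scaling by library size. Il1rn, the interleukin 1 receptor antagonist, went from 0.907 ± 0.703 to 4.28 ± 0.879 CPM (log2FC 2.23), and Tnf from 10.9 ± 9.06 to 32.3 ± 17.2 CPM with overlapping libraries (log2FC 1.57). The inflammasome sensor Nlrp1b fell from 133 ± 22.4 to 30.5 ± 5.39 CPM (log2FC −2.13) and Il6 from 9.66 ± 3.04 to 3.88 ± 1.05 CPM (log2FC −1.31). The 21 Toll-like receptor genes and adaptors held 2 higher and 2 lower genes (median −0.22), or 0 and 6 with scaling by library size. Tlr2 went from 136 ± 6.63 to 296 ± 34.3 CPM (log2FC 1.12) and its partner Cd14 from 331 ± 19.1 to 699.7 ± 62.4 CPM (log2FC 1.08), while the flagellin receptor Tlr5 went from 24.7 ± 5.64 to 6.32 ± 2.04 CPM (log2FC −1.97) and Tlr8 from 3.84 ± 1.8 to 1.32 ± 0.657 CPM (log2FC −1.54). Of 33 phagocytic and scavenger receptors, 10 were higher and 2 were lower, with a median of 0.24. With scaling by library size these became 9, 8 and −0.13. The lower ones were Stab1 (from 1236 ± 238 to 522 ± 129.8 CPM, log2FC −1.24) and the sialic acid receptor Cd33 (from 1217 ± 123 to 499 ± 44 CPM, log2FC −1.29).

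Genes of cellular respiration were called higher in numbers that depended on the processing. Of 37 complex I genes, 23 were higher (62.2%) and none was lower (median log2FC 1.19), and 34 were higher at the FDR alone. Of 43 genes of complexes II to V, 30 were higher (69.8%), none was lower and all 43 were higher at the FDR alone (median 1.43). Complex I had 9 with offsets for gene length and 11 with scaling by library size, and complexes II to V had 19 and 22. Cox6a1, a subunit of cytochrome c oxidase, read 56.7, 56.1, 53, 59.2 and 57.8 CPM in WT CIH and 216, 167, 241, 250.6 and 489 CPM in 5XFAD CIH (log2FC 2.27, SE 0.23, adjusted p = 1.83e-06). The groups were apart, with 5XFAD CIH 5 well above the other 4. Ndufa1, an accessory subunit of complex I, went from 11.4 ± 0.658 to 83.5 ± 45.2 CPM (log2FC 2.87), while the core subunit Ndufs1 had 52.6 ± 3.57 CPM in WT CIH and 49 ± 5.26 CPM in 5XFAD CIH with overlapping libraries. Of 12 tested mitochondrially encoded genes, 10 were higher (83.3%, median 1.37; 1 with the length offsets and 5 with scaling by library size), among them mt-Nd4 (from 822 ± 55.4 to 2523 ± 767 CPM, log2FC 1.62) and mt-Co1 (from 3411 ± 261 to 7435 ± 359 CPM, log2FC 1.12).

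Of 80 tested cytosolic ribosomal protein genes, 77 were higher (96.2%) and none was lower, with a median log2FC of 2.03. Rpl32 read 160.3, 147, 139, 134 and 144 CPM in WT CIH and 653, 607, 739, 816 and 1137 CPM in 5XFAD CIH (log2FC 2.45, SE 0.15, adjusted p = 2.04e-08). Its lowest 5XFAD CIH library was above its highest WT CIH library. The 3 genes not called were Rps4l, Rps10 and Rpl24, with log2FC of 0.89, −0.4 and −0.44. Ribosomal protein genes share sequence with many processed pseudogenes, so the division of reads among them is uncertain. The mitochondrial ribosome had 12 of 77 genes higher (15.6%, median 0.69), and the proteasome had 5 of 38 higher (13.2%, median 0.47), or 2 without 5XFAD CIH 5.

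The changes also followed gene length. When the genes tested were divided into 5 classes of equal size by the length of their deposited gene model, from 48 to 1959 bases in the shortest class to 7053 to 123179 in the longest, the median log2FC fell from 0.365 through 0.095, −0.047 and −0.155 to −0.301. The share of higher genes fell from 27.2% to 4.46%, while that of lower genes was 9.94% in the shortest and 6.56% in the longest class. With the length trend of each library removed as an offset, calls numbered 1383 higher and 1208 lower. Under that alternative 75 ribosomal protein genes were called higher and 1 lower, and the called proteasome genes numbered 3 in place of 5. With scaling by library size alone the mitochondrial ribosome had 5 genes called higher. Under WT NX against 5XFAD NX the same classes had medians of 0.096, −0.024, −0.018, 0.019 and 0.080 with all libraries, and of 0.238, 0.058, −0.014, −0.072 and −0.171 without 5XFAD NX 4 and NX 5. The slope of expression on log2 length ran from −0.134 to 0.030 in the 5XFAD CIH libraries and from 0.001 to 0.092 in the WT CIH libraries, and its part in these results was not tested beyond the offsets.

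**Figure D3:**
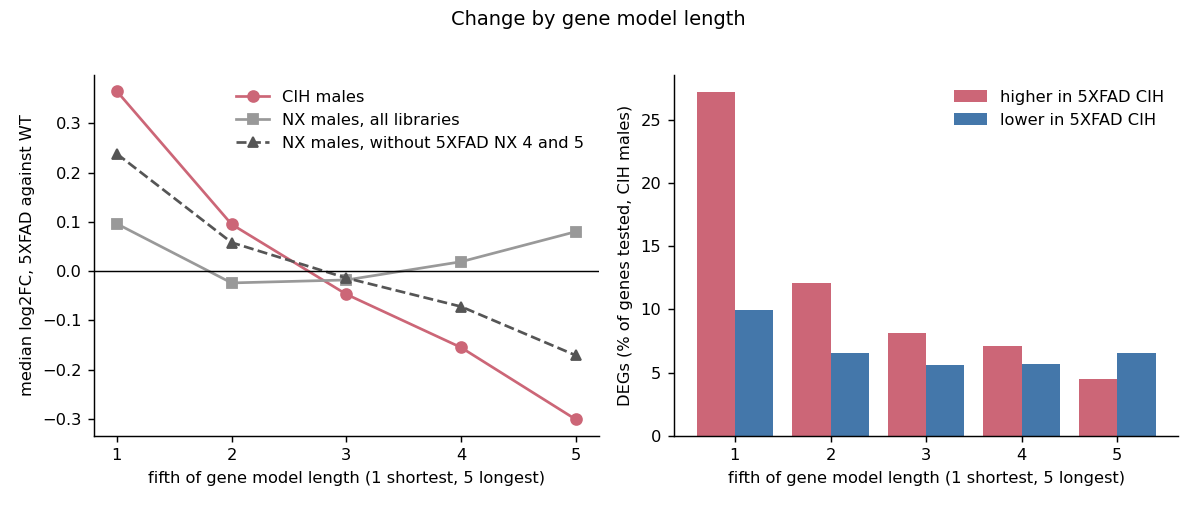
Genes are grouped in 5 classes by deposited model length; the first panel plots the median log2FC of each class under CIH and under NX (with and without 5XFAD NX 4 and NX 5) and the second the percentage of genes called higher and lower under CIH. Under CIH the median falls from 0.365 in the shortest class to −0.301 in the longest, and under NX it stays between −0.024 and 0.096 with all libraries and falls from 0.238 to −0.171 without NX 4 and NX 5.

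Of 25 glycolytic genes, 11 were called higher (44.0%) and none lower (median log2FC 0.77), or 9 and 0 with scaling by library size (median 0.39). Ldha, the muscle-type lactate dehydrogenase subunit, read 116, 124, 137, 112 and 120.0 CPM in WT CIH and 413, 358, 363, 449 and 638 CPM in 5XFAD CIH (log2FC 1.86, SE 0.15, adjusted p = 1.83e-07). All 5XFAD CIH libraries were above all WT CIH libraries. Tpi1 went from 73.1 ± 10.7 to 445 ± 130.3 CPM (log2FC 2.61), Pkm, pyruvate kinase, from 245 ± 15.5 to 1226 ± 197 CPM (log2FC 2.33) and the lactate exporter Slc16a3 from 49.6 ± 8.67 to 188 ± 63.6 CPM (log2FC 1.92). The hexokinase gene Hk2, the entry step, had 260.2 ± 8.66 CPM in WT CIH and 202 ± 28.6 CPM in 5XFAD CIH (log2FC −0.37, adjusted p = 0.00712). Gapdh drew 23.7 CPM in WT CIH and 27.3 CPM in 5XFAD CIH, and since many pseudogenes copy it this value is uncertain.

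Of 28 HIF targets and oxygen sensors, 6 were higher (21.4%) and none was lower, with a median of 0.26. With scaling by library size 3 were higher and 2 lower, with a median of −0.11. The oxygen-sensing hydroxylase Egln3 went from 1.73 ± 0.309 to 70.01 ± 12.5 CPM (log2FC 5.34) and Hif1a, the oxygen-labile factor, from 97.9 ± 7.16 to 406 ± 45.4 CPM (log2FC 2.05). Vegfa had 7.38 ± 2.39 CPM in WT CIH and 14.2 ± 2.12 CPM in 5XFAD CIH and Pdk1, a kinase that inhibits pyruvate dehydrogenase, 135 ± 13 CPM in WT CIH and 149.8 ± 20.7 CPM in 5XFAD CIH (adjusted p = 0.00209 and 0.271). Both groups of libraries had breathed the hypoxic gas, so these values compare genotypes and not oxygen levels.

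The start of Ldha is shown because its window holds matches of the hypoxia response core (ACGTG, which is also part of CACGTG), in capitals. Over both strands 5 matches were counted. Each CACGTG was counted once per strand, so the matches fall in fewer separate places. It lies at chr7:46845554-46845853 on the plus strand.
Ldha: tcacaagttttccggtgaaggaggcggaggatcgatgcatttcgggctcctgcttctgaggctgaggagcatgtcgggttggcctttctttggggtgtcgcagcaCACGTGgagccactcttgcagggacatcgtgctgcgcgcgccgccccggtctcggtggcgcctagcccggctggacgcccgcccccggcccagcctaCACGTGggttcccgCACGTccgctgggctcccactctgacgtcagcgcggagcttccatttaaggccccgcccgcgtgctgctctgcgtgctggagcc
On either strand ACGTG was in 25.3% of all windows at hand, in 26.1% of those of the higher genes, in 19.5% of those of the lower genes, in 50% of 24 glycolysis windows and in 59.1% of 22 windows of HIF targets and sensors, as well as in 60.0% of 15 circadian clock windows and 46.2% of 13 V-ATPase windows. The NRF1 core (GCGCANGCG) was in 13.6% of all windows, in 11.8% of those of the higher genes and in 7.14% of those of the lower genes. It was in 40.6% of the 32 windows of complexes II to V and 24.2% of 33 for complex I. The ETS core (CCGGAAG) was in 18.3% of all windows, in 13.7% of those of the higher genes and in 10.7% of those of the lower genes. It was in 41.4% of the 58 windows of ribosomal protein genes, 34.4% for complexes II to V and 12.1% for complex I. Lists with few called genes also held it often, with 33.8% for the mitochondrial ribosome and 29.0% for the proteasome.

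Of 25 antioxidant genes, 10 were higher (40.0%; 6 without 5XFAD CIH 5) and none was lower (median log2FC 0.70). With the length offsets 5 were higher, and library size scaling left 4 higher and 1 lower. Among the higher genes were the peroxiredoxin Prdx1 (from 88.5 ± 5.14 to 277 ± 68.3 CPM, log2FC 1.65) and heme oxygenase Hmox1 (from 40.1 ± 6.66 to 97 ± 14 CPM, log2FC 1.28). Of 8 NADPH oxidase genes, 3 were higher (37.5%), with the catalytic subunit Cybb going from 34.5 ± 4.36 to 122 ± 18.3 CPM (log2FC 1.82). Iron genes went both ways, with 4 of 15 higher, Hmox1 among them, and 3 lower (1 without 5XFAD CIH 5), or 2 and 4 with scaling by library size. The ferritin chains Fth1 (from 789.6 ± 50.01 to 3922 ± 1072 CPM, log2FC 2.31) and Ftl1 (from 426 ± 54.5 to 1530 ± 363 CPM, log2FC 1.85) rose, and the iron exporter Slc40a1 (from 259 ± 35.1 to 78.8 ± 8.83 CPM, log2FC −1.71) and Ncoa4, the receptor for ferritin breakdown (from 80.2 ± 10.2 to 37.1 ± 15 CPM, log2FC −1.12), fell. Transferrin, Trf, was also higher (log2FC 1.27), and lactoferrin, Ltf, which neutrophils make, was lower with overlapping libraries (log2FC −1.04).

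Of 31 cell cycle genes, 7 were higher (22.6%, median log2FC 0.59; 3 with scaling by library size), with the mitotic kinase Cdk1 going from 3.44 ± 0.69 to 16.8 ± 5.04 CPM (log2FC 2.28), while Mki67 had 10.6 ± 2.06 CPM in WT CIH and 15.9 ± 1.61 CPM in 5XFAD CIH (log2FC 0.59, adjusted p = 0.0053). Among 25 immediate early and isolation response genes, which rise when cells are handled warm, 4 were higher and none was lower (median −0.11), or 2 and 2 with scaling by library size. Fos had 155 ± 27.6 CPM in WT CIH and 125 ± 64.8 CPM in 5XFAD CIH with overlapping libraries (adjusted p = 0.332). Heat shock and unfolded protein genes held 3 higher of 27 (median 0.15, −0.22 with scaling by library size). Of 17 circadian clock genes, 3 were higher and 2 were lower (median −0.46), or 2 and 6 with scaling by library size. Hlf, an output factor of the clock, fell from 26.8 ± 5.91 to 6.68 ± 2.88 CPM (log2FC −2.0) and Per3 from 51.3 ± 3.13 to 22.8 ± 3.04 CPM (log2FC −1.17).

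Mouse orthologues of 38 Alzheimer risk genes were tested, of which 8 were higher (21.1%) and 4 lower (10.5%). The median log2FC was −0.12, and it became 0.07 with the length offsets. With scaling by library size 6 were higher and 5 lower (median −0.51). At the FDR alone 10 were higher and 14 lower. Besides Apoe, Trem2, Grn and Ctsb the higher ones were Ctsh, Lilrb4a, Treml2 and Scimp, with log2FC of 1.06, 2.02, 1.95 and 1.53. The lower ones were Cd33, Abca1 (not called with the length offsets), the focal adhesion protein Cass4 (from 31 ± 6.08 to 7.69 ± 3.41 CPM, log2FC −2.01) and Usp6nl (log2FC −1.06). Bin1, a membrane-bending protein, had 972 ± 118 CPM in WT CIH and 788 ± 59.5 CPM in 5XFAD CIH (log2FC −0.3, adjusted p = 0.0223), and Inpp5d, a phosphatase that opposes TREM2 signalling, 1187 ± 158 CPM in WT CIH and 896 ± 212 CPM in 5XFAD CIH (log2FC −0.41, adjusted p = 0.0387). In the Ms4a family, 2 of 8 genes were higher and 2 were lower, or 1 and 3 with scaling by library size or with the length offsets, and Ms4a6b fell from 85.2 ± 6.66 to 38.5 ± 4.7 CPM (log2FC −1.14). Of 27 galectins and tetraspanins, 5 were higher and 2 lower (median 0.46), with Lgals3, galectin 3, going from 9.07 ± 1.09 to 99.1 ± 28.1 CPM (log2FC 3.45). Of 39 cytoskeletal and motility genes, 3 were higher and 3 lower, with a median of 0.10. With scaling by library size these became 0, 8 and −0.26.

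By the same rule the 10 largest falls were mostly in transcripts known only by a predicted gene name. Gm37317 (7.13 ± 1.09 CPM in WT CIH and 0.705 ± 0.416 CPM in 5XFAD CIH, log2FC −3.33) was first, and Gm13293, Gm37851, Gm33869, Gm13479 and Gm42944 followed with log2FC of −3.12, −2.92, −2.75, −2.67 and −2.54. The named genes among them were the orphan receptor Gpr165 (from 31.9 ± 10.5 to 3.62 ± 1.4 CPM, log2FC −3.14), the prostaglandin receptor Ptger3 (from 8.19 ± 1.57 to 1.1 ± 0.726 CPM, log2FC −2.88), the adenylate cyclase Adcy8 (from 14.2 ± 2.59 to 2.56 ± 1.03 CPM, log2FC −2.48) and the immunoglobulin segment Ighj2 (log2FC −2.47). By biotype, 47.2% of 53 sense intronic transcripts were lower (median −1.28), as were 25.2% of 393 antisense transcripts (median −0.70) and 22.2% of 379 lincRNAs (median −0.51), against 4.53% of 12486 protein-coding genes (median −0.03). The counting strand is not stated, so reads of an antisense or intronic transcript cannot be told apart from those of its host gene. Processed pseudogenes ran the other way, with 43.3% of 561 higher (median 0.82).

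Malat1, a nuclear long noncoding RNA, read 1176, 986, 1266, 1344 and 870.1 CPM in WT CIH and 459, 535, 309, 239 and 124 CPM in 5XFAD CIH (log2FC −1.76, SE 0.30, adjusted p = 0.000221). The groups did not overlap, although on a fold scale the 5XFAD CIH libraries differed among themselves by more than the WT CIH libraries did. It was 1 of 2 lower genes among 8 tested nuclear and structural RNAs, and the other was Gm26917 with overlapping libraries (log2FC −1.19). Of 50 chromatin and transcription regulators, with a median model length of 13663 bases, none was higher and 2 were lower (4.00%, under the background of 6.88%), yet 32 were lower at the FDR alone and the median was −0.55. The called genes were the remodeller Chd9 (from 244 ± 33.6 to 88 ± 7.76 CPM, log2FC −1.47) and the demethylase Kdm6b (from 40.1 ± 11.9 to 18.8 ± 5.56 CPM, log2FC −1.1). With the length offsets the median of this list was −0.26 and none was called, while scaling by library size gave 19 lower genes of the 50 (median −0.92) beside 2527 lower of all 14793.

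**Figure D4:**
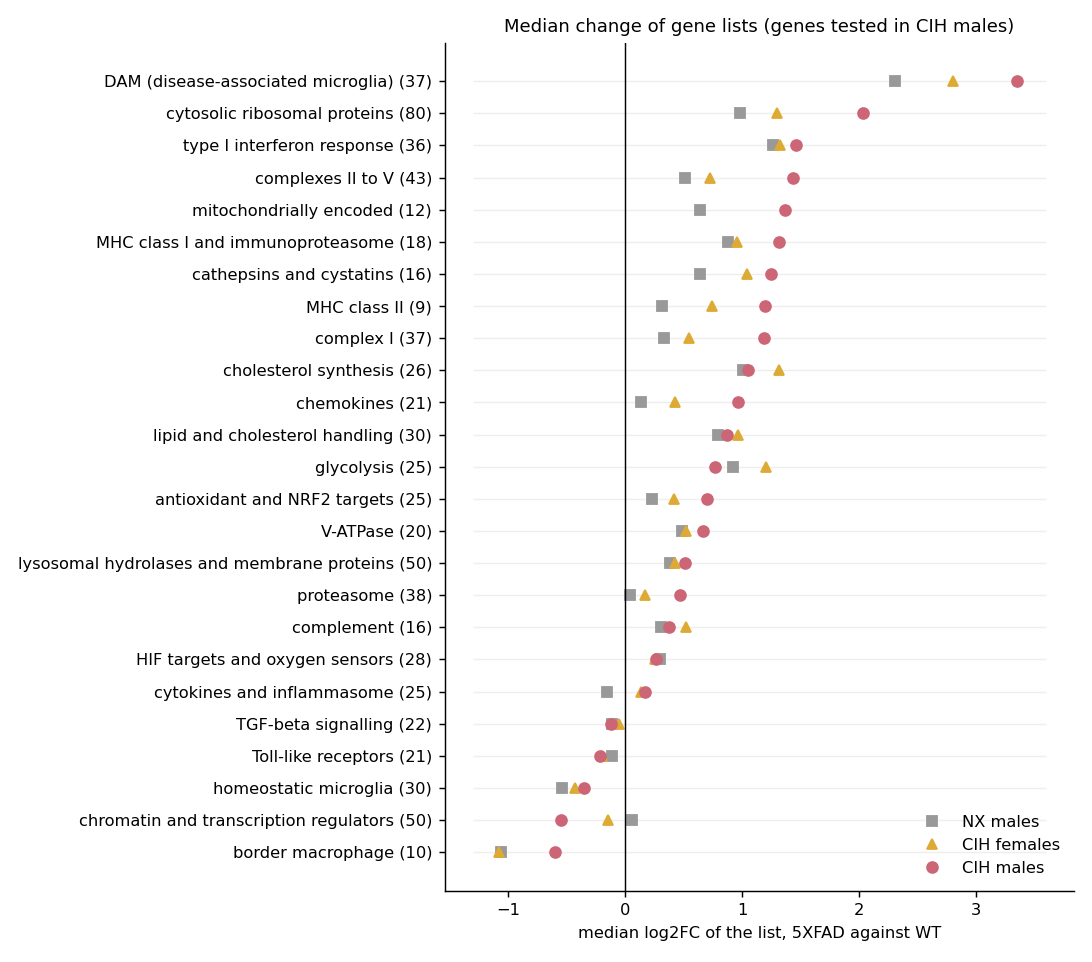
Median log2FC of 5XFAD over WT for 25 gene lists in CIH males, NX males (all libraries) and CIH females, with 0 marked. The DAM list is farthest right in each comparison at 3.35, 2.31 and 2.81, and the chromatin list is at −0.55, 0.06 and −0.15.

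Some markers of other cell types differed between the genotypes and others did not, and their part in the results was not tested. Summed over its 8 genes, the T and NK cell list read 1.902 to 4.843 CPM in WT CIH and 9.774 to 16.04 CPM in 5XFAD CIH, and 4 of the 5 tested were higher. Cd3e read 0.128, 0.195, 0, 0 and 0.0582 CPM in WT CIH and 1.79, 3.84, 0.758, 1.22 and 1.1 CPM in 5XFAD CIH, and Cd8a 0.255, 0, 0.127, 0.211 and 0.116 CPM in WT CIH and 3.81, 1.59, 2.65, 1.33 and 3.81 CPM in 5XFAD CIH. In WT CIH neither gene had more than 4 reads in a library. Astrocyte markers summed to 176.4 to 275.7 CPM in WT CIH and 250.7 to 696.3 CPM in 5XFAD CIH, with 2 of 10 higher and 1 lower. Gfap read 0.128, 0.537, 0.381, 0.898 and 1.75 CPM in WT CIH and 102, 308, 220.4, 428 and 387 CPM in 5XFAD CIH (log2FC 8.58, SE 0.50, adjusted p = 9.78e-09). S100b went from 0.694 ± 0.494 to 14.3 ± 7.7 CPM (log2FC 4.36), whereas Slc1a2 (23.2 ± 12.8 CPM in WT CIH and 49.7 ± 24 CPM in 5XFAD CIH) and Aqp4 (3.16 ± 2.09 CPM in WT CIH and 2.26 ± 1.07 CPM in 5XFAD CIH) overlapped between the genotypes and Gja1 was lower (9.49 ± 7.02 CPM in WT CIH and 2.49 ± 1.37 CPM in 5XFAD CIH). The higher markers of this list were thus Gfap and S100b alone.

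Border macrophage markers summed to 1246 to 1829 CPM in WT CIH and 451.0 to 883.8 CPM in 5XFAD CIH, with 2 of 10 lower (5 with scaling by library size), Stab1 and the mannose receptor Mrc1 (119 ± 36.2 CPM in WT CIH and 51.1 ± 20.6 CPM in 5XFAD CIH, log2FC −1.22). Most of the summed level in both groups was Stab1 alone, whose values are given above with the scavenger receptors. Neutrophil markers had 3 of 10 lower (1 without 5XFAD CIH 5) and overlapping sums (126.0 to 361.6 and 65.1 to 241.2 CPM). No neuronal marker of 11 was called, with sums of 25.7 to 30.3 CPM in WT CIH and 14.1 to 46.8 CPM in 5XFAD CIH. Oligodendrocyte sums also overlapped (204.8 to 293.3 and 249.5 to 474.2 CPM), with Mbp (55 ± 4.89 CPM in WT CIH and 142 ± 27 CPM in 5XFAD CIH) and Mobp (6.45 ± 2.28 CPM in WT CIH and 20.7 ± 8.2 CPM in 5XFAD CIH) higher. The only precursor marker called higher of 3 tested was Cspg4 (from 2.05 ± 1.26 to 76 ± 21 CPM, log2FC 5.18), while the precursor marker Pdgfra had 0.906 ± 0.519 CPM in WT CIH and 0.352 ± 0.337 CPM in 5XFAD CIH. Among 10 endothelial and mural markers Flt1 was higher (log2FC 2.7), Pecam1 was lower (log2FC −1.5) and Cldn5, an endothelial junction protein, had 8.3 ± 5.3 CPM in WT CIH and 7.96 ± 5.62 CPM in 5XFAD CIH. None of 5 erythroid, 3 B cell and 3 ependymal or choroid markers was called, and 1 of 5 monocyte markers, Ly6c2, was higher (log2FC 1.04).

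**Figure D5:**
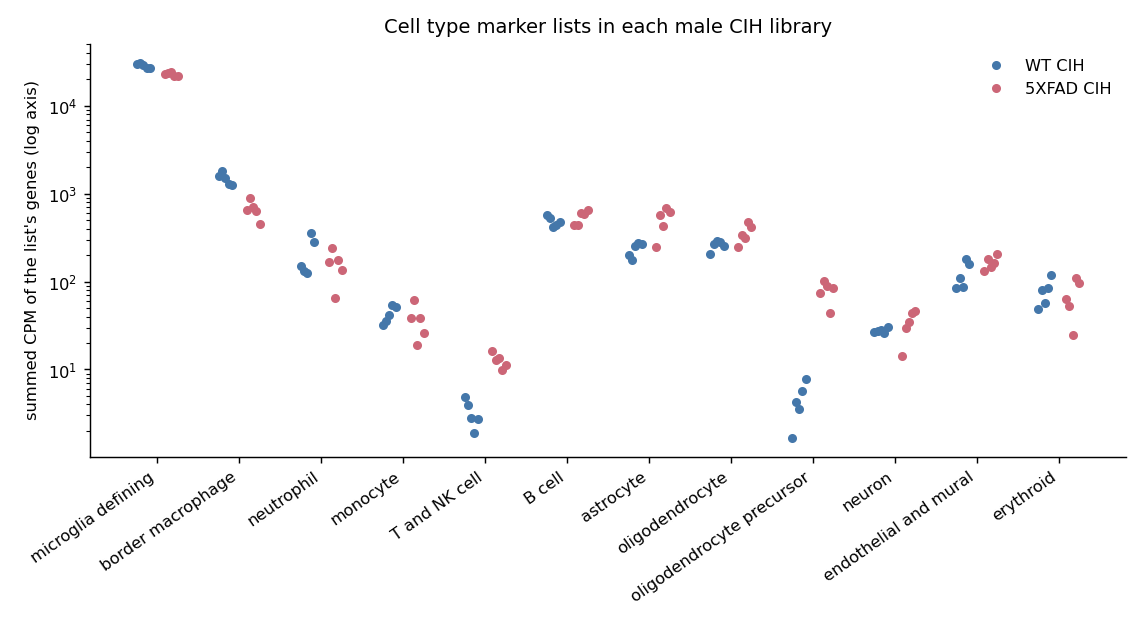
Summed CPM of 12 cell type marker lists in each of the 10 libraries, on a log axis, with WT CIH and 5XFAD CIH side by side. The T and NK cell sums are higher and the microglia and border macrophage sums lower in every 5XFAD CIH library, while the neuron, neutrophil and oligodendrocyte sums overlap. Most of the border macrophage sum is the gene Stab1.

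The same genotypes under normoxia were compared to see where the hypoxic comparison stood apart. In WT NX against 5XFAD NX, 881 of 14834 genes were higher (5.94%) and 343 lower (2.31%). Without 5XFAD NX 4 and NX 5, an alternative chosen after the data were seen, the counts were 1138 higher and 554 lower of 14299. Of 14345 genes tested in both comparisons, 720 were called higher in both, which is 42.1% of the CIH calls and 82.6% of the NX calls, and 169 were called lower in both (18% and 49.9%). No gene was called in opposite directions. Without the 2 libraries, 1007 were higher in both (59.7% of the CIH and 89.1% of the NX calls) and 330 were lower in both (39.4% and 60.3%).

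The difference of the genotype effects was tested in one fit over the 4 male groups. Of 15813 genes, none passed the FDR and the fold threshold in either direction (0.0% higher and 0.0% lower) by edgeR's quasi-likelihood test, and none passed the FDR alone, while 3857 had an unadjusted p under 0.05 and the median difference was −0.035. With all libraries DESeq2 called 308 genes and edgeR's likelihood ratio test 175, and without 5XFAD NX 1 the quasi-likelihood test called 478. Without 5XFAD NX 4 and NX 5 it called 0 of 15640. With all libraries, the 5 genes with the smallest p of a larger 5XFAD over WT ratio under CIH were Mrgpre, Capg, Zfp652os, Cd52 and Gins4, all at FDR = 0.118. Capg, an actin-capping protein, had a log2FC of 3.72 under CIH and 2.28 under NX (2.55 without NX 4 and NX 5), a difference of 1.44 (SE 0.29). Cd52, a surface glycopeptide, had 3.36 and 1.87 (2.18), a difference of 1.48 (SE 0.33). In the opposite direction stood 4930506C21Rik, Gm12185, Gm26648, Gm45413 and Styx, also at FDR = 0.118.

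By gene group, all 37 DAM genes were called higher under NX too, with a median log2FC of 2.31 (2.37 without NX 4 and NX 5) against 3.35 under CIH. Interferon genes had 24 higher and a median of 1.27 (26 and 1.53 without them) against 25 and 1.46. Glycolysis had 12 and 0.92 (13 and 1.01) against 11 and 0.77. The CIH minus NX difference of the DAM genes had a median of 0.74 (0.50 without NX 4 and NX 5), above 0 for 34 of 37 with all libraries, and none of them passed the FDR.

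Several groups had fewer calls under NX with all libraries. Ribosomal protein genes had 38 higher and a median of 0.98 under NX (75 and 1.36 without NX 4 and NX 5) against 77 and 2.03 under CIH. Complex I had 1 and 0.33 (5 and 0.69) against 23 and 1.19. Complexes II to V had 3 and 0.52 (15 and 0.88) against 30 and 1.43. MHC class II genes had 1 and 0.32 (4 and 0.65) against 6 and 1.19. Chromatin regulators had a median of 0.06 with all NX libraries and −0.41 without the pair, against −0.55 under CIH. By edgeR's quasi-likelihood test with all libraries none of these genes is shown to respond to genotype differently under CIH, and the calls by DESeq2, the likelihood ratio test and without 5XFAD NX 1 are given above as counts over all genes. C1qa had a log2FC of 1.41 under CIH and 0.38 under NX (0.74 without NX 4 and NX 5), and Malat1 had −1.76 and 0.45 (−1.71), without passing the quasi-likelihood test of the difference.

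The female cohort gave a separate view of the same genotype contrast under CIH. Of 14911 genes tested in the females, 1317 were higher (8.83%) and 615 lower (4.12%). Of 12885 genes tested in both cohorts, 942 were higher in both, which is 61.9% of the male and 81.8% of the female calls, and 237 were lower in both (36.5% and 54.5%), with none in opposite directions. All 37 DAM genes were higher in both cohorts, with a median of 2.81 in females. Apoe had a log2FC of 4.0 in females, Cst7 7.39 and Trem2 1.24. Ribosomal protein genes had 74 of 79 higher (median 1.30), interferon genes 24 of 36 (1.32), cholesterol synthesis 18 of 26 (1.31) and complex I 2 of 37 (0.55).

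In the test of the difference between cohorts, 210 of 14449 genes passed, with 133 showing a larger 5XFAD over WT ratio in females (0.92%) and 77 a smaller one (0.533%), and 2001 passed the FDR alone, 910 larger and 1091 smaller. The count was 336 without male 5XFAD CIH 1, 442 without male 5XFAD CIH 2, 123 without male 5XFAD CIH 5 and 132 without female 5XFAD CIH 3. Sex, age, length of exposure and annotation table all differ between the cohorts and cannot be told apart. The levels of some of these genes differed widely between the 2 tables, and Rps10 read 13.1 CPM in male and 139 CPM in female WT CIH, Rhof 2.57 and 73.2 CPM, and Wdr89 27.2 and 2.39 CPM. Crybb1, a crystallin read in microglia, had a log2FC of −0.74 in males and −2.07 in females, a difference of −1.33 (SE 0.19, FDR = 0.00136). Ap4e1, an adaptor complex subunit, had −1.58 and −0.16, a difference of 1.42 (SE 0.18, FDR = 0.000785). For Pgm1, a sugar phosphate mutase, the values were 0.09 and 1.08, a difference of 0.99 (SE 0.14, FDR = 0.00136). Of 37 DAM genes, 1 passed with a larger and 1 with a smaller ratio in females, 13 passed the FDR alone, and the median difference was −0.46 with 7 above 0. Of 80 ribosomal protein genes, 2 and 2 passed, 59 passed the FDR alone, and the median difference was −0.76 with 3 above 0.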

How the data were processed

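Bulk RNA-seq libraries of CD11b-selected cerebral cells were analysed from the gene table of the male mice, with the female table as a comparator. Per the labels and the study's methods, the authors aligned reads with HISAT2 (version not given in the sources used here) to GRCm38/mm10 and deposited raw read counts per gene, without pooling replicates. The counting tool, its strand setting and its handling of reads shared by gene copies are not given in the sources used here. The authors also deposited FPKM values, which for the males followed from the counts, the gene model length and a factor per library of 0.794 to 1.204, and these served only in alternatives, on the log2 (FPKM + 1) and log2 (FPKM + 0.1) scales.

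Genes were kept when at least 3 of the compared libraries exceeded 1 CPM, counts were scaled by TMM and tested with edgeR (version 4.0.16, R 4.3.3, quasi-likelihood F test), and p-values were adjusted by Benjamini-Hochberg over all genes tested. Calls needed an FDR below 0.05 and a log2FC beyond 1. Differences between genotype effects were interaction terms, across 20 male libraries or across the 20 CIH libraries of both cohorts, for the latter over symbols that occur once in each table. DESeq2 (1.42.0), limma (3.58.1), edgeR's likelihood ratio test, other filters and scalings, offsets for the lowess trend (span 0.3) of each library on gene length, and omission of each library were alternatives. The test scripts were tested on simulated data. Depth was 13902976 to 21302810 reads per library, and counts at or under 3 in every library of a group were taken as its floor.

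The members compared and all gene lists were chosen with earlier results of these data known, so the counts of a list describe it and do not test it. Named are listed genes, the 10 largest rises and falls among called genes without overlap and with a mean of at least 5 CPM in the higher group, the 5 called genes with the highest mean CPM (Apoe, Ctsd, Ctsb, C1qa and C1qb), and the 5 genes of smallest p in each direction of each interaction. Of the listed symbols, Csta2, Cstdc4, Apbb3 and Rn7sl1 were not matched. Promoter windows were those of RefSeq, 300 bases each. Some listed genes, and results that rest on the transgenes, are not reported here.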

Additional observations from a re-analysis of the deposited data

Results flagged for a closer look

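The outer library of a group was set apart by its gap to the nearest other, measured by Dixon's criterion, in 12 of the 156 groups of values examined (7.69%), where chance marks about 1 in 20. The groups share libraries and some genes, so the marks are not independent and the share cannot show an excess over chance. 5XFAD CIH 5 was the high library in 7 of the 12. It read 139 CPM of Lgi2, 5420 CPM of Cst7 and 35750 CPM of Ctsd, and its summed levels were 164600 CPM over the DAM list, 1581 CPM over cholesterol synthesis, 30820 CPM over phagocytic receptors and 8971 CPM over glycolysis. This was also the library farthest out on the first principal component, and without it 1543 genes were called higher and 869 lower. Its library quality was not tested apart from these values. WT CIH 1 stood apart with a summed level of 4087 CPM over MHC class I and immunoproteasome genes and 621.5 CPM over chemokines, WT CIH 5 with 0.698 CPM of Dkk2, 5XFAD CIH 1 with 5110 CPM over immediate early genes, and 5XFAD CIH 4 with 1378 CPM over ependymal and choroid markers.

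The genotype effect under CIH differed between the male and the female cohort for 210 genes by the interaction test. Sex, age, length of exposure and the annotation table cannot be told apart in this difference.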

How the results depend on the processing

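Of 1125 listed or named genes, 828 kept their call under every alternative run for them and none that was called reversed. The 2764 calls under CIH (1746 higher and 1018 lower) became 1571 with limma on log2 (FPKM + 1), of which 361 were lower, and 7248 at the FDR alone, 3739 higher and 3509 lower. Library size scaling gave 1147 higher and 2527 lower genes, with 6 cholesterol synthesis genes higher in place of 14, 8 of MHC class I and the immunoproteasome in place of 13, 4 of the V-ATPase in place of 8, and 19 chromatin regulators lower in place of 2, and a minimum of 10 counts in every library left 594 lower among fewer genes tested. Leaving out each library in turn gave 2412 to 3029 calls, 1543 to 1852 of them higher and 846 to 1177 lower. The absence of calls in the male interaction became 308 calls with DESeq2 and 175 with the likelihood ratio test, and 0 to 478 when a library was left out, 478 without 5XFAD NX 1 and 0 otherwise, and the cause was not tested. The cohort interaction gave 319 genes with the likelihood ratio test in place of 210, and 123 to 442 when a library was left out.

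Same-numbered libraries of the 2 CIH groups had correlations of their deviations from −0.039 to 0.145. These values cannot settle whether the numbers pair the samples. With a replicate block the calls were 1698 higher and 1085 lower, and with the block and the length offsets 1349 and 1264. With all libraries the block gave 830 calls under NX in place of 1224, 1962 in the CIH females, 170 for the cohort interaction and 0 for the male interaction.

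Depth limits the genes of few reads, among them Cd3e and Cd8a, with at most 4 reads in any WT CIH library. Several groups of short genes had fewer calls with the length offsets, and several NX groups had more without 5XFAD NX 4 and NX 5. The 2 cohorts were counted against different annotation tables, so levels cannot be compared between them.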
